A study of Arabidopsis thaliana with 12 samples.

Results

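Among the genes that the deposited Arabidopsis gene table leaves without a name, 106 were strongly induced by abscisic acid (ABA) in germinated seeds of both genotypes. They were selected on their measured levels: a mean of at least 1 cRPKM (the authors' RPKM-type unit, reads scaled to gene length and library depth) over the 3 ABA libraries, and a ratio of mean ABA level to mean mock level, with 0.1 cRPKM added to each, of at least 4, both in the mutant sr34a-1 and in wild type (WT). The table holds 33602 genes, of which 32389 have values, and 19701 of those have no name. Another 103 genes that do have a name met the same thresholds. The selection used the ABA and mock levels of both genotypes, so the ABA response of the 106 genes is described below, and nothing about the set is read from a test of it. What is tested is the difference between genotypes within a treatment, in level and in splicing.

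The 12 libraries form 4 groups of 3: sr34a-1 with ABA, WT with ABA, sr34a-1 with mock treatment and WT with mock treatment. The line sr34a-1 carries a mutant allele of SR34A (AT3G49430), which encodes a splicing factor of the serine/arginine-rich (SR) family, and WT is the accession Col-0. Seeds of both genotypes were stratified and kept for 44 h under constant white light on MS medium, a standard plant salt medium, and then placed for 2 h on medium with 0.5 µM ABA or on the same medium without it. Whole germinated seeds were extracted and polyadenylated RNA was sequenced, to ask what SR34A does to expression and splicing while seedlings establish and respond to ABA. The mutant is represented by 1 allele. The labels call the 3 libraries of a group biological replicates but do not say that they came from separate seed lots. The p-values measure only the spread between these libraries.

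ABA is the hormone that holds seeds dormant, arrests young seedlings when water is short and switches on protective genes in vegetative tissue. Inside the cell, receptor binding releases SnRK2 kinases, which activate bZIP transcription factors such as ABI5. These factors bind the ABA-responsive element (ABRE), whose core is ACGTG. Typical targets encode late embryogenesis abundant (LEA) proteins and dehydrins, which are small, hydrophilic proteins that build up in drying seeds. Germinated seeds lose this seed program over time and can still return to it when ABA is given early.

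Total counts ranged from 61128187 to 83268758 per library. SR34A itself stood at 9.41 to 11.25 cRPKM in sr34a-1 with ABA, 71.17 to 75.95 in WT with ABA, 10.15 to 11.2 in sr34a-1 with mock treatment and 76.56 to 81.62 in WT with mock treatment. It was lower in the mutant by a log2 fold change of -2.88 with ABA (SE 0.0678, edgeR adjusted p = 3.87e-12) and of -2.86 with mock treatment (SE 0.0675, adjusted p = 3.81e-12). The filter on low counts kept 21256 genes, and all 106 selected genes passed it, which their ABA levels alone ensure.

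RefSeq holds an entry for each of the 106 identifiers. RefSeq calls 104 of them protein-coding, while AT3G17110 and AT3G56275 are transcribed pseudogenes. They lie on all 5 nuclear chromosomes, with 23, 15, 22, 17 and 29 of them on chromosomes 1 to 5. Although the deposited table has no name for them, RefSeq gives a symbol to 10. These include LEA7 (AT1G52690), the seed maturation protein SMP1 (AT3G12960), the metallothionein AtMT4b (AT2G23240), the zinc finger protein OZF1 (AT2G19810), the RING ubiquitin ligase AIRP2 (AT5G01520) and the neighbouring proline-rich genes PELPK1 (AT5G09530) and PELPK2 (AT5G09520). Each coding gene was put in the first class whose key words its RefSeq product matched, so the classes sort descriptions and not pathways. For example, AT4G18920, with the product histone acetyltransferase (DUF1264), fell in redox and metabolism. The LEA and dehydrin-like class took 18 genes, which is 16.98% of the 106 genes against 0.48% of the 19284 unnamed genes with values and a RefSeq entry. Another 24 fell in the class of uncharacterized products or domains of unknown function, 9 in redox and metabolism and 7 in transport and membrane. Transcription and DNA binding took 5, ubiquitin and protein turnover 5, lipid and cell wall 2 and kinases or phosphatases 1. The other 33 coding genes include an AWPM-19-like membrane protein (AT1G04560), an oleosin (AT2G25890), which coats oil bodies, and the stress-linked Nod 19 protein AT5G61820.

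The proteins were short and the genes had few introns. Of the 104 coding genes, 35.6% had no intron, against 15.5% of the 103 named genes with the same ABA response and 20% of all 27444 nuclear coding genes. The median protein had 236 residues in the 106-gene set, 317 in the named genes and 348 in all coding genes. Proteins under 150 residues made up 29.8%, 12.6% and 16.1% of the 3 sets, in the same order. Unnamed coding genes at large were not compared, so whether these differences go with lacking a name was not tested. AT3G03341, annotated as a cold-regulated protein, has 72 residues and no intron, and the LEA proteins LEA7 and AT3G15670 have 169 and 225 residues and 1 intron each. At the other end, the protein kinase AT5G24080 has 872 residues and 4 introns.

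The 250 bases before the transcript start are shown for 8 of the genes, to let the ABRE cores be read in place. They are the highly expressed LEA genes AT3G15670, AT3G17520, AT1G52690 (LEA7) and AT4G36600, the LEA gene AT3G53040, among the largest genotype differences with ABA, AT1G52680, which shares an intergenic stretch with LEA7, the uncharacterized AT5G05220, with a large ABA ratio, and AT1G49450, a WD40-repeat gene with no core in its window. Sequences are from RefSeq on TAIR10.1 and run 5′ to 3′ along the gene's own strand. Capitals mark ACGTG or its reverse complement CACGT, and overlapping matches count as 1 site.
AT3G15670: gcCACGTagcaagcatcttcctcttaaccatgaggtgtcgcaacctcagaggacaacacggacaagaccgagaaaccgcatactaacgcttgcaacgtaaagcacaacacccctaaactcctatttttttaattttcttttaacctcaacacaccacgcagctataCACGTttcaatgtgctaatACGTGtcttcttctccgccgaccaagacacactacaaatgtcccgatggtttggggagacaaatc
AT3G17520: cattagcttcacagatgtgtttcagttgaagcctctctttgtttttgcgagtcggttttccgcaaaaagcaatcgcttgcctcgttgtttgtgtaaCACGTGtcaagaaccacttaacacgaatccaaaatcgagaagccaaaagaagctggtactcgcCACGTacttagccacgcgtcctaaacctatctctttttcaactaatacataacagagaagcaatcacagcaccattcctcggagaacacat
AT1G52690: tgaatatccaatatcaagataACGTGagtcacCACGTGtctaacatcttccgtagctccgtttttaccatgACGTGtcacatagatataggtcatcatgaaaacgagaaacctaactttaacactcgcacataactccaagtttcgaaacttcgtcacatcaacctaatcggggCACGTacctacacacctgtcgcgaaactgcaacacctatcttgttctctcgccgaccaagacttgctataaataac
AT1G52680: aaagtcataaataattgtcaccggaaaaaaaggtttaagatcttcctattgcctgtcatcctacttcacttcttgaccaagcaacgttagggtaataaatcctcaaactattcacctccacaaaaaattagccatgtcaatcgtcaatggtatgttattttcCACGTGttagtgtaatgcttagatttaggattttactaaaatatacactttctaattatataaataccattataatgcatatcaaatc
AT4G36600: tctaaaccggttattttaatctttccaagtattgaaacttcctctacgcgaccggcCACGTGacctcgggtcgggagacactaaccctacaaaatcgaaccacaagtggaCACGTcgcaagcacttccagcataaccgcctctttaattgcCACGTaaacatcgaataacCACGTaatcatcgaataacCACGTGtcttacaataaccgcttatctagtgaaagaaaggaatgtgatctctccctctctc
AT3G53040: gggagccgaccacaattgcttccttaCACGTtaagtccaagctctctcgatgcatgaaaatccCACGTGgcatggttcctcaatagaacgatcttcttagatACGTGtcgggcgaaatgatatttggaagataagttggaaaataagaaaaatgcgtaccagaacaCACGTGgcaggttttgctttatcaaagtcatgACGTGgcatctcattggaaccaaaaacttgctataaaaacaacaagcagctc
AT5G05220: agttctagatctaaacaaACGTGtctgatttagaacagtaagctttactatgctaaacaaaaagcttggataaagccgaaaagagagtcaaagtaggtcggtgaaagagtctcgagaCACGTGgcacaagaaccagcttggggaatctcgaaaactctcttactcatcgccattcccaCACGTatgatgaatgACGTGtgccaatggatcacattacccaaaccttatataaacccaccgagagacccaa
AT1G49450: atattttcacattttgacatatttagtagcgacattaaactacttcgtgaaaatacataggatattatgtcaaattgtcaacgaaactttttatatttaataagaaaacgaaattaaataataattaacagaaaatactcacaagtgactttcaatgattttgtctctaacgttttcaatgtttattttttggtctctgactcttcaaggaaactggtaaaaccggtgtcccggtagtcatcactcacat

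The windows lie at chr3:5310989-5311238 (minus strand, AT3G15670), chr3:6000448-6000697 (minus strand, AT3G17520), chr1:19619474-19619723 (plus strand, AT1G52690), chr1:19619027-19619276 (minus strand, AT1G52680), chr4:17263314-17263563 (plus strand, AT4G36600), chr3:19666498-19666747 (minus strand, AT3G53040), chr5:1550001-1550250 (plus strand, AT5G05220) and chr1:18305195-18305444 (plus strand, AT1G49450). AT4G36600 and AT3G53040 hold 5 sites each, LEA7 and AT5G05220 hold 4, AT3G15670 holds 3, AT3G17520 holds 2, AT1G52680 holds 1 and AT1G49450 holds 0. No other annotated gene reaches into these 8 windows.

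ABRE cores were common across the set. At least 1 ACGTG, read on both strands, stood in the 250-base promoter of 78 of the 104 coding genes (75%), of 62 of the 103 named genes with the same response (60.2%) and of 6288 of all 27443 coding genes with a full window (22.9%). At least 2 separate sites stood in 51.0%, 36.9% and 5.0% of these promoters. The longer forms ACGTGTC and ACGTGGC, which both contain the core, stood in 40.4% and 24% of the 104 promoters. They stood in 29.1% and 20.4% of the named genes' promoters and in 3.7% and 3.4% of all promoters. The palindromic G-box CACGTG, which also contains the core, stood in 51.0%, 33.0% and 6.5% of these sets, in the same order. The dehydration-responsive core CCGAC stood in 26.9%, 22.3% and 12%, and the RY element CATGCA of seed genes in 20.2%, 12.6% and 8.4%. The TATA sequence TATAAA stood in 39.4%, 43.7% and 47.3%. Sites were most frequent between 51 and 75 bases before the start, where 28.85% of the 104 promoters had one beginning, against 3.9% of all promoters. These shares are descriptions of the letters in fixed windows.

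**Figure D1:**
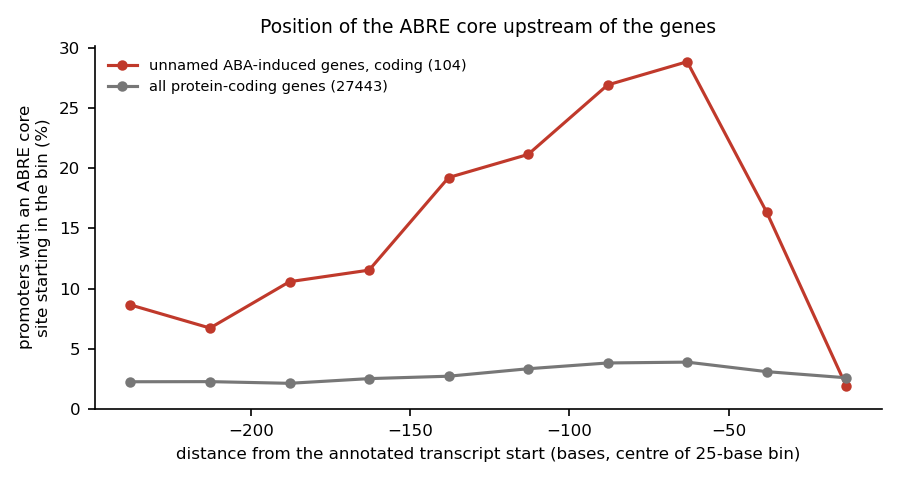
Share of promoters with an ABRE core beginning in each 25-base bin (vertical axis, %), by distance from the annotated transcript start (horizontal axis, bases), for the 104 coding genes of the ABA-induced set and for all 27443 coding genes. The set peaks at 28.85% in the bin from 75 to 51 bases before the start, where all genes have 3.9%.

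The ABA response spanned a wide range of levels. Averaged over the 6 ABA libraries, the 106 genes lay between 1.17 and 989.66 cRPKM, with a median of 19.41. Of these, 14 reached 100 cRPKM, 51 lay between 10 and 100, and 41 lay under 10. The geometric mean of the ABA ratios in sr34a-1 and WT ran from 4.20 to 54.02 with a median of 7.44, and it was under 8 for 59 genes, from 8 to 16 for 33 and at least 16 for 14.

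The most abundant transcripts were mostly LEA messages. AT3G15670, a LEA family gene on chromosome 3, had 1207, 1171 and 1586 cRPKM in sr34a-1 with ABA, 659, 668 and 646 in WT with ABA, 258, 284 and 302 in sr34a-1 with mock treatment and 103, 163 and 123 in WT with mock treatment. AT3G17520, also a LEA family gene, had 1032, 1009 and 1279 cRPKM in sr34a-1 with ABA, 566, 517 and 529 in WT with ABA, 131, 156 and 162 in sr34a-1 with mock treatment and 52.3, 89.3 and 61.6 in WT with mock treatment. In both genes the 4 groups did not overlap, and within each treatment every sr34a-1 library lay above every WT library. LEA7 had 967, 933 and 1179 cRPKM in sr34a-1 with ABA, 615, 610 and 672 in WT with ABA, 90.5, 102 and 107 in sr34a-1 with mock treatment and 41.8, 60.9 and 48.9 in WT with mock treatment. The same order of groups held for LEA7, whose locus overlaps AT1G52695 on the opposite strand. Other members above 100 cRPKM included the LEA genes AT4G36600, AT4G21020, AT5G44310 and AT5G66780, the AWPM-19-like AT1G04560, from a plant family of ABA-linked membrane proteins, the cold-regulated AT3G03341 and the uncharacterized AT1G07985.

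AT3G03341 had 581, 516 and 651 cRPKM in sr34a-1 with ABA, 375, 351 and 359 in WT with ABA, 52.9, 57.3 and 58.4 in sr34a-1 with mock treatment and 22.2, 31.9 and 24.99 in WT with mock treatment. AT1G04560 had 394, 396 and 518 cRPKM in sr34a-1 with ABA, 212, 198 and 199 in WT with ABA, 63.4, 74.4 and 82.4 in sr34a-1 with mock treatment and 25.1, 41.9 and 30.7 in WT with mock treatment. Both genes followed the group order of the LEA messages, and AT3G03341 overlaps AT3G03340 on the opposite strand. AT1G07985, an uncharacterized protein, stood at 283, 278 and 302 cRPKM in sr34a-1 with ABA, 205, 187 and 222 in WT with ABA, 70.7, 61.6 and 64.2 in sr34a-1 with mock treatment and 44.8, 47.9 and 44.8 in WT with mock treatment.

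**Figure D2:**
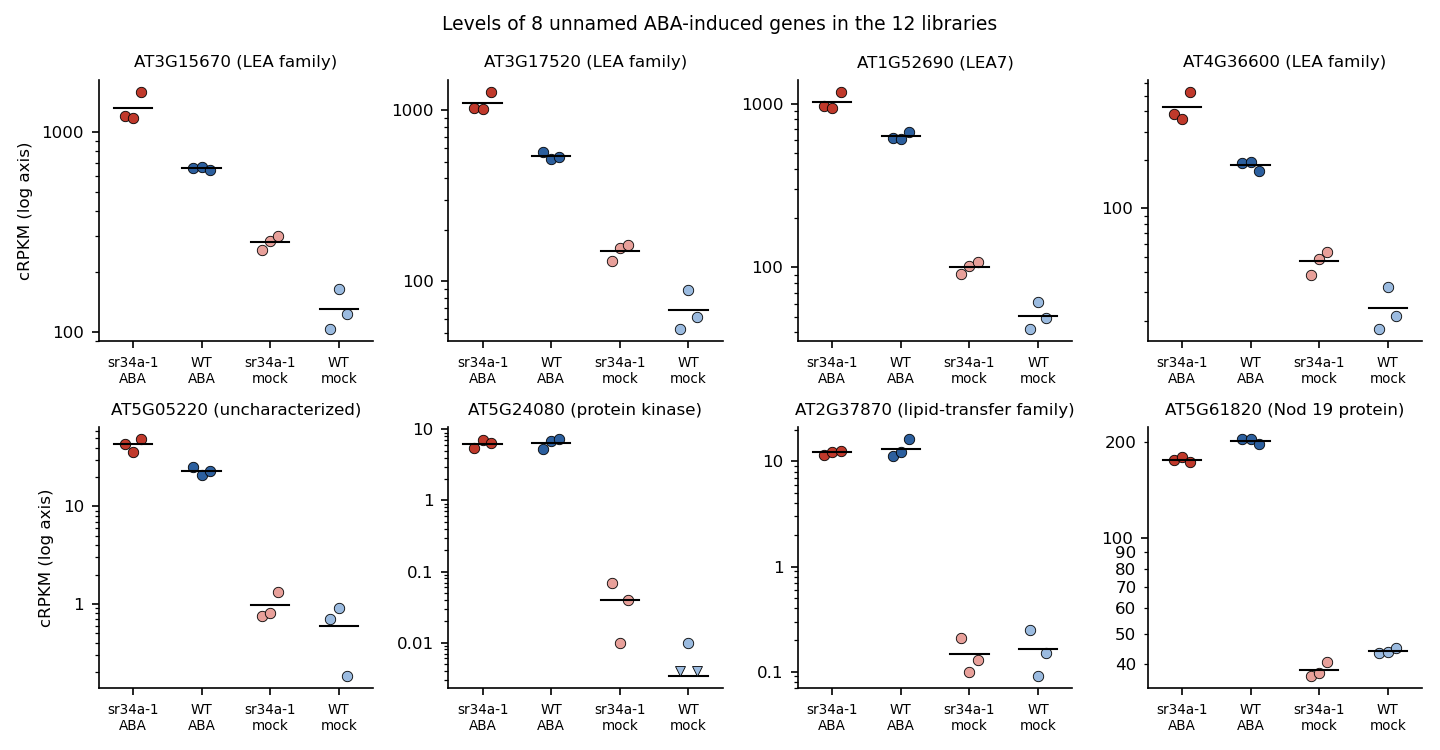
Levels of 8 members in cRPKM (vertical log axes) in the 12 libraries (points) with group means (lines). Triangles mark AT5G24080 in WT mock libraries listed at 0. The LEA genes and AT5G05220 are higher in sr34a-1 than in WT with ABA, AT5G24080 and AT2G37870 overlap between genotypes with ABA, and AT5G61820 is lower in sr34a-1, at 173 to 180 against 197 to 205 cRPKM with ABA.

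Most of the genes with the largest ABA ratios had few reads with mock treatment, and AT1G49450, with 141 to 219, was an exception. AT5G24080, a protein kinase family gene, had 591, 882 and 722 reads in sr34a-1 with ABA, 545, 768 and 694 in WT with ABA, 8, 1 and 5 in sr34a-1 with mock treatment and 0, 1 and 0 in WT with mock treatment. An annotated long non-coding RNA lies on the opposite strand of AT5G24080, and the sources do not say if counting used the strand. AT2G37870, from the family of lipid-transfer and 2S albumin proteins, had 11.6, 12.4 and 12.5 cRPKM in sr34a-1 with ABA, 11.2, 12.3 and 16.3 in WT with ABA, 0.21, 0.10 and 0.13 in sr34a-1 with mock treatment and 0.25, 0.09 and 0.15 in WT with mock treatment. Its ratios were 49.82 in sr34a-1 and 50.82 in WT, with 4 to 8 reads behind each mock value, and the genotypes overlapped in both treatments. AT5G05220, uncharacterized, had 44.2, 36.6 and 49.1 cRPKM in sr34a-1 with ABA, 25.3, 21.1 and 23.2 in WT with ABA, 0.76, 0.81 and 1.33 in sr34a-1 with mock treatment and 0.70, 0.91 and 0.18 in WT with mock treatment. Its genotypes separated with ABA and overlapped with mock treatment. AT1G49450, the WD40-repeat gene without an ABRE core in its window, had 23.2, 25.4 and 25.2 cRPKM in sr34a-1 with ABA, 21.7, 24.99 and 28.9 in WT with ABA, 0.98, 1.41 and 1.16 in sr34a-1 with mock treatment and 1.28, 0.96 and 1.44 in WT with mock treatment. The genotypes overlapped in both treatments for this gene.

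The other members with the largest ratios were AT1G52680, a LEA-related gene, AT3G56275, a transcribed pseudogene, AT3G48510, AT5G03210 (DIP2), AT5G53710 and the hydrolase family gene AT4G36610. AT3G56275 had 137, 215 and 213 reads in sr34a-1 with ABA, 153, 215 and 180 in WT with ABA, 0, 2 and 2 in sr34a-1 with mock treatment and 0, 5 and 6 in WT with mock treatment. AT5G50361, annotated with 65 residues, was listed at 0 in all 6 mock libraries and had only 18, 6 and 12 reads in sr34a-1 with ABA and 12, 16 and 9 in WT with ABA.

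At the edge of the selection, AT2G19810 (OZF1) had ratios of 4.99 in sr34a-1 and 4.01 in WT, AT2G28420 (GLYI8, a glyoxalase) had 4.20 and 4.21, and AT3G20300 had 5.01 and 4.23. Just outside stood the unnamed genes AT4G19810, with 3.99 in sr34a-1 and 6.06 in WT, AT4G33550, with 3.98 and 4.65, and AT5G22460, with 3.93 and 4.83.

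Among the members, 10 are neighbours of one another, in 5 pairs. AT1G52680 and LEA7 point away from each other with 697 bases between them, AT1G54860 and AT1G54870 do so with 320 bases between them, AT4G36600 and AT4G36610 face each other across 159 bases, and the tandem pairs are PELPK2 with PELPK1 and AT5G50361 with AT5G50360. Levels differed widely within some pairs and little within others. AT1G52680 had 8.15, 7.79 and 11.6 cRPKM in sr34a-1 with ABA and 4.31, 5.92 and 6.78 in WT with ABA, far under its neighbour LEA7. AT4G36610 had 2.68, 3.18 and 2.21 cRPKM in sr34a-1 with ABA and 2.10, 5.70 and 3.35 in WT with ABA, while AT4G36600 had 387, 361 and 530 in sr34a-1 with ABA and 192, 194 and 172 in WT with ABA. PELPK2 had 1.35, 2.14 and 1.59 cRPKM in sr34a-1 with ABA and 0.58, 2.82 and 1.20 in WT with ABA, which overlapped PELPK1 at 1.33, 2.69 and 1.93 in sr34a-1 and 0.89, 3.97 and 2.05 in WT. Across the set, 25 members overlap another annotated gene, nearly always on the opposite strand, and AT2G18540 and AT5G60760 have a near-identical stretch elsewhere in the genome, so the counts of these are less certain.

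Next, the genotypes were compared within each treatment. The selection did not use this contrast itself, though it used the mean levels of the same 4 groups. With mock treatment, most members were higher in sr34a-1. Of the 106 genes, 63 were higher and 1 was lower in sr34a-1 (edgeR, adjusted p under 0.05 over all genes tested), and 42 did not pass. Over all 21256 genes, 8.42% were called higher and 7.99% lower. The median log2 fold change, sr34a-1 over WT, was 0.91 for the 106 genes, 0.49 for the 103 named genes with the same ABA response, of which 45 were higher and 1 lower, and 0.02 for all genes. On the log2(cRPKM + 1) scale, fitted with limma, the median of the 106 genes was 0.48. The 63 genes called higher had a median 2.16-fold difference, and 40 of them exceeded 1 on the log2 scale. With the replicate number as a block, 69 were higher and 3 lower, while 13.5% of all genes were called higher and 11.8% lower.

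Among members called with mock treatment, AT4G18920 and AT1G08170 had the largest mock differences. AT4G18920, which shares the DUF1264 domain of oil body-associated proteins, had 0.86, 0.93 and 0.82 cRPKM in sr34a-1 with mock treatment against 0.15, 0.20 and 0.21 in WT, a log2 fold change of 2.21 (SE 0.206, adjusted p = 1.6e-05). AT1G08170, a histone family gene, had 27, 46 and 37 reads in sr34a-1 with mock treatment against 10, 8 and 7 in WT (log2 fold change 2.08, SE 0.398, adjusted p = 0.00274). In both genes the groups were separate at low levels. AT1G54860, coding for a membrane-anchored glycoprotein, followed at 1.51 (SE 0.258, adjusted p = 0.00128), AT2G19320 at 1.52 (SE 0.485, adjusted p = 0.0456) and AT5G42290 at 1.46 (SE 0.238, adjusted p = 0.000959). The call of AT2G19320, which rests on 2 to 25 reads per mock library, was lost without any one of the mock libraries except sr34a-1 replicate 1, with adjusted p up to 0.15. It was also lost without sr34a-1 ABA replicate 2 (0.061) or any one of the WT ABA libraries (0.0512 to 0.0534). The 6 mock libraries alone gave 0.0777, and limma on log2(cRPKM + 1) gave 0.108. Among abundant members, the log2 fold change was 1.12 for AT3G15670 (SE 0.134, adjusted p = 0.000112), 1.14 for AT3G17520 (SE 0.147, adjusted p = 0.000194) and 0.98 for LEA7 (SE 0.112, adjusted p = 8.2e-05). In WT with mock treatment, replicate 2 was the highest of the 3 libraries for each of these, and without it 58 of the 106 genes were higher and 1 lower, while 4.18% of all genes were called higher and 4.87% lower.

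With ABA, most members were again higher in sr34a-1. There were 71 members higher and 2 lower in sr34a-1, and 33 did not pass the same test. Over all genes 11.1% were called higher and 11% lower. The median log2 fold change was 0.75 for the 106 genes, 0.37 for the named genes with the same ABA response, of which 56 were higher and 3 lower, and 0.00 for all genes. The 71 genes called higher had a median 1.97-fold difference. Without sr34a-1 replicate 3, the ABA library with the highest summed level of the members, 59 were higher and 2 lower, while 6.78% of all genes were called higher and 7.31% lower.

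The largest differences with ABA were those of AT5G62800, a RING and TRAF-like protein gene, AT1G08170, the LEA genes AT2G42560 and AT3G53040, and the uncharacterized AT3G15280. AT5G62800 had 8.84, 8.67 and 11.3 cRPKM in sr34a-1 with ABA against 4, 3.35 and 3.75 in WT (log2 fold change 1.36, SE 0.171, adjusted p = 9.7e-05). AT2G42560 had 109, 121 and 160 cRPKM in sr34a-1 with ABA against 50.3, 54.6 and 47.5 in WT (log2 fold change 1.34, SE 0.192, adjusted p = 0.000246). AT3G53040 had 259, 256 and 346 cRPKM in sr34a-1 with ABA against 118, 124 and 111 in WT (log2 fold change 1.28, SE 0.161, adjusted p = 0.000104). In each of these the groups were separate. AT3G15670, AT3G17520 and LEA7 had log2 fold changes of 1.00, 1.03 and 0.69 with ABA, each with an adjusted p under 0.05.

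The 2 genes that were lower with ABA were AT5G61820 and AT3G22600. AT5G61820 had 175, 180 and 173 cRPKM in sr34a-1 with ABA against 205, 204 and 197 in WT. With mock treatment it had 36.6, 37.7 and 40.5 cRPKM in sr34a-1 against 43.6, 43.9 and 45.0 in WT. Its log2 fold change was -0.21 with ABA (SE 0.0407, adjusted p = 0.00233) and -0.21 with mock treatment (SE 0.0417, adjusted p = 0.00389), so it was lower in both treatments, by a small amount. Its first exon overlaps the start of AT5G61830 on the opposite strand. AT3G22600 (LTPG5), for a lipid-transfer protein, had 66.3, 72.9 and 62.7 cRPKM in sr34a-1 with ABA against 81.8, 115 and 92.2 in WT (log2 fold change -0.53, SE 0.117, adjusted p = 0.00526). With mock treatment it had 12.6, 15.0 and 16.7 cRPKM in sr34a-1 against 16.2, 21.1 and 19.95 in WT, which did not pass the test (adjusted p = 0.0631).

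Across both treatments, 60 members were higher in sr34a-1 each time, which is 60 of the 63 called with mock treatment and 60 of the 71 called with ABA. Over all genes, 5.46% were called higher in both. The mock and ABA libraries are separate samples, but the selection ties the 2 comparisons. It asked for a ratio of at least 4 in both genotypes and so trimmed genes that differ between genotypes in 1 treatment alone. The overlap of the calls is therefore a description. Another 3 members were called higher with mock treatment alone and 11 with ABA alone, AT3G22600 was called lower with ABA alone, AT5G61820 was lower in both, and 30 were called in neither treatment. The LEA and dehydrin-like class stood at 16 higher and 0 lower of 18 with mock treatment (median log2 fold change 1.15) and at 18 higher of 18 with ABA (median 1.04). The ABA call of 1 of these, AT1G52680, was lost without sr34a-1 replicate 3 (adjusted p = 0.144), WT replicate 1 (0.0893) or WT replicate 2 (0.0547). All 5 transcription and DNA-binding members were higher with ABA and 4 with mock treatment, among them the GATA factor-like AT1G02700 (log2 fold change 1.03 with ABA, SE 0.142, and 1.14 with mock treatment, SE 0.169). The ABA call of OZF1 (AT2G19810) was lost without sr34a-1 replicate 3 (adjusted p = 0.0617), and the mock call of the zinc finger gene AT5G44260 was lost without sr34a-1 replicate 2 or 3 or WT replicate 1 or 3 (adjusted p from 0.0623 to 0.106). Of the 5 ubiquitin-related members, 4 were higher with ABA and 3 with mock treatment, and the ABA call of DIP2 (AT5G03210) was lost without sr34a-1 replicate 3 (adjusted p = 0.1) or WT replicate 2 (0.0951). The RING ligase AIRP2 (AT5G01520), a positive regulator of ABA responses, was higher by 0.99 with ABA (SE 0.138, adjusted p = 0.000203) and by 0.57 with mock treatment (SE 0.172, adjusted p = 0.0366) on the log2 scale. The mock call of AIRP2 was lost without sr34a-1 replicate 2 or 3 or WT replicate 1 or 3, with adjusted p from 0.0978 to 0.136. Of the 9 members that product words put in redox and metabolism, 6 were higher in each treatment. Of the 24 in the uncharacterized class, 12 were higher with ABA and 10 with mock treatment.

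The transport and membrane class, which also takes in lipid-transfer family genes such as AT2G37870 and AT3G22600, was split. Of its 7 members, 2 were higher and 1, AT3G22600, was lower with ABA. With mock treatment 2 were higher and 0 lower. The median log2 fold changes were -0.13 with ABA and -0.11 with mock treatment. The amino acid transporter family gene AT2G41190 had 27.1, 26.4 and 29.9 cRPKM in sr34a-1 with ABA, 25, 27.5 and 26.2 in WT with ABA, 4.22, 4.41 and 4.50 in sr34a-1 with mock treatment and 4.06, 4.49 and 4.11 in WT with mock treatment. Its genotypes overlapped in both treatments, and neither difference passed the test. None of the 2 lipid and cell wall members, the pectin lyase-like AT1G48100 and the GDSL lipase-like AT3G50400, and neither pseudogene passed it.

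**Figure D3:**
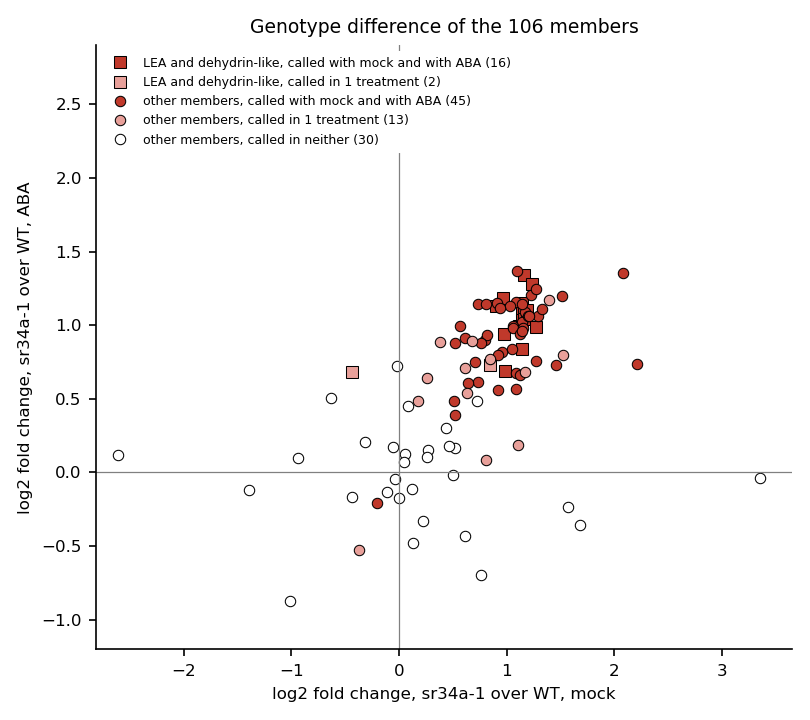
Log2 fold change of sr34a-1 over WT for each of the 106 genes with mock treatment (horizontal axis) and with ABA (vertical axis), each point 1 gene, squares for the LEA and dehydrin-like class. The 60 genes called higher in both treatments lie above 0 on both axes, and AT5G61820, at -0.21 on each, is called lower in both.

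A list of named genes of ABA signalling and response is given for comparison. Of the 45 listed genes, 20 were higher and 1 lower in sr34a-1 with ABA and 16 were higher and 1 lower with mock treatment, with median log2 fold changes of 0.20 and 0.16. The transcription factor genes ABI5 (0.92 with ABA and 0.96 with mock treatment), ABI3 (0.98 and 1.08) and ABI4 (0.78 and 0.82) were higher in both treatments. ABF4 was higher with ABA (0.20), while ABF1, ABF2, ABF3, NAC019, NAC055, NAC072, ATHB-7, ATHB-12 and ATMYB102 were not called in either treatment. Of the dehydrins, RAB18 was higher in both treatments (1.06 and 1.09) and XERO2 with ABA (0.29), while COR47 and ERD10 were not called in either. The phosphatases of clade A, which restrain ABA signalling, were split. AHG1 (1.06 with ABA and 1.05 with mock treatment), AIP1 (0.52 and 1.36) and HAI3 (0.83 and 1.14) were higher in both treatments, and HAB2 was higher with ABA (0.16). ABI1, ABI2, HAB1, PP2CA and HAI1 were not called in either treatment, with log2 fold changes from -0.03 to 0.13 with ABA and from -0.44 to 0.27 with mock treatment.

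Genes that mark seed reserves, endosperm and photosynthetic tissue differed between the genotypes as well. All 16 seed reserve and late seed genes were higher in sr34a-1 with ABA and 15 of 16 with mock treatment, with median log2 fold changes of 1.20 and 1.19. Their summed level was 1397, 1523 and 1941 cRPKM in sr34a-1 with ABA, 675, 766 and 672 in WT with ABA, 456, 383 and 511 in sr34a-1 with mock treatment and 159, 214 and 187 in WT with mock treatment. The 3 endosperm genes were higher in both treatments, and their sum was 170 to 209 cRPKM in sr34a-1 with ABA, 99.4 to 110 in WT with ABA, 147 to 167 in sr34a-1 with mock treatment and 77.4 to 82.6 in WT with mock treatment. All 16 photosynthetic genes were lower in both treatments, with medians of -0.97 with ABA and -0.90 with mock treatment and sums of 12080 to 13200 cRPKM in sr34a-1 with ABA, 19410 to 23570 in WT with ABA, 12000 to 14870 in sr34a-1 with mock treatment and 20290 to 23660 in WT with mock treatment. Many of these markers also responded to ABA. Of the 16 seed genes, 11 were called higher with ABA than with mock treatment in WT and 12 in sr34a-1 (edgeR, adjusted p under 0.05). Over all 21256 genes, 3858 and 4119 were called higher. Of the 3 endosperm genes, 2 were called higher and 1 lower with ABA in each genotype. No marker was at 0 in any library. The 106 members summed to 9284, 9073 and 11650 cRPKM in sr34a-1 with ABA, 5525, 5411 and 5464 in WT with ABA, 1342, 1521 and 1616 in sr34a-1 with mock treatment and 638, 935 and 729 in WT with mock treatment. In these whole germinated seeds, a larger share of cells of a type and more RNA per cell cannot be told apart, and the part of tissue makeup or of seedling stage in the genotype difference of the members was not tested.

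**Figure D4:**
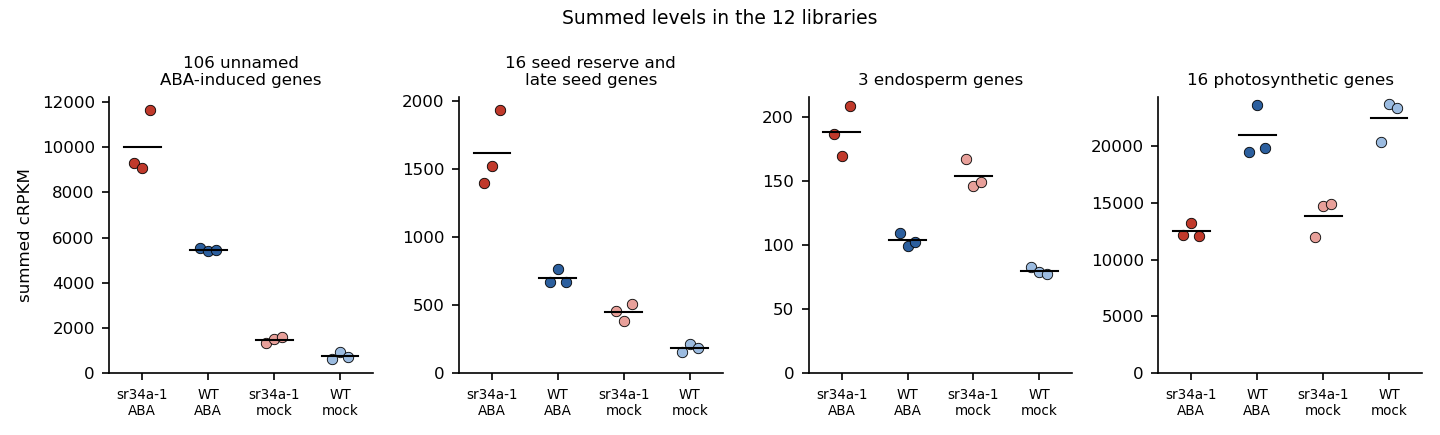
Summed cRPKM (vertical axes, from 0) of the 106 ABA-induced genes and of the 3 marker lists in the 12 libraries (points) with group means (lines). Members, seed reserve and endosperm genes are higher in sr34a-1 than in WT within each treatment, and photosynthetic genes are lower.

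The ABA responses of the genotypes are set side by side here as a description. The selection asked for a ratio of at least 4 in both genotypes, so it trimmed genes with unequal responses and nothing about the set is read from the counts that follow. In an interaction fit (edgeR), 0 of the 106 genes and 0% of all genes had an adjusted p under 0.05, and DESeq2 called 0 members and 35 genes in all. At an unadjusted p under 0.05, 3 members had a larger and 8 a smaller response in sr34a-1, where all genes gave 2.87% and 3.59%. AT4G18920 had the smallest interaction p among the members. Its levels were 4.31, 4.90 and 4.59 cRPKM in sr34a-1 with ABA, 2.89, 2.47 and 2.87 in WT with ABA, 0.86, 0.93 and 0.82 in sr34a-1 with mock treatment and 0.15, 0.20 and 0.21 in WT with mock treatment. AT1G05340, AT2G17680, AT5G04380 and AT5G24080 followed, each with a smaller fitted response in sr34a-1, and AT2G17680 and AT5G24080 rest on 0 to 8 reads in the mock libraries.

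Splicing was compared between the genotypes in the ABA libraries, where the members have reads. Of 104 events in 50 members that could be tested, 3 were called (limma, adjusted p under 0.05), in AT5G61820 and AT5G45310, against 0.796% of all 28400 events. In AT5G61820, the gene with lower levels in sr34a-1, a 49-base exon at chr5:24836433-24836481 (TAIR10, minus strand) was included more often in sr34a-1. It lies inside the first intron, chr5:24836227-24836625, which is upstream of the coding sequence, and a second RefSeq transcript keeps these bases within a longer first exon. The exon's percent spliced in (PSI) was 7.78, 6.36 and 5.65 in sr34a-1 with ABA against 3.59, 2.22 and 2.07 in WT with ABA, on 1551 to 2393 reads per library (log2 ratio 1.41, adjusted p = 3.57e-06). With mock treatment the PSI was 5.08, 7.33 and 4.92 in sr34a-1 against 3.00, 4.28 and 2.09 in WT on 439 to 585 reads. The groups were separate in both treatments, at low inclusion.

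In AT5G45310, annotated as a coiled-coil protein, the other called events were the competing acceptor sites of 1 exon. The annotated exon, chr5:18360061-18360240 on the minus strand, has 180 bases, and the inner acceptor starts it at 18360126, which leaves 66 bases. It is shown from RefSeq on TAIR10.1 with the 12 intron bases before it, and the 114 bases lost with the inner acceptor are in capitals.
AT5G45310: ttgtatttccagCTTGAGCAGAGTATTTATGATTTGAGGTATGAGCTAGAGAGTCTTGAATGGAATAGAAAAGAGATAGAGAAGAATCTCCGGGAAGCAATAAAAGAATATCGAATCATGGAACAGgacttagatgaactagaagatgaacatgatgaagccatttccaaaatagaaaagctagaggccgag

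The inner acceptor had a PSI of 26.6, 42.3 and 36.1 in sr34a-1 with ABA against 4.92, 10.3 and 9.68 in WT with ABA (adjusted p = 0.00744), on 39 to 97 reads per library. The annotated acceptor had 71.9, 57.8 and 63.9 in sr34a-1 against 95.1, 89.7 and 90.3 in WT (adjusted p = 0.00619). The groups were separate for both sites. Without sr34a-1 replicate 2 both calls were lost (adjusted p = 0.104 for the inner and 0.0853 for the annotated acceptor), the inner one also without sr34a-1 replicate 3 (0.0535) or WT replicate 1 (0.0525), and the mock libraries hold only 1 to 14 reads for these sites. The intron directly before this exon was itself often retained with ABA, at 46.55, 48.03 and 55.05 PSI in sr34a-1 and 26.01, 50.68 and 38.22 in WT. Its groups overlapped, and it was not called (limma adjusted p = 0.384). The gene as a whole was higher in sr34a-1 with ABA, at 9.57, 10.9 and 12.2 cRPKM against 6.83, 6.19 and 7.81 in WT (log2 fold change 0.64, SE 0.125, adjusted p = 0.00225).

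**Figure D5:**
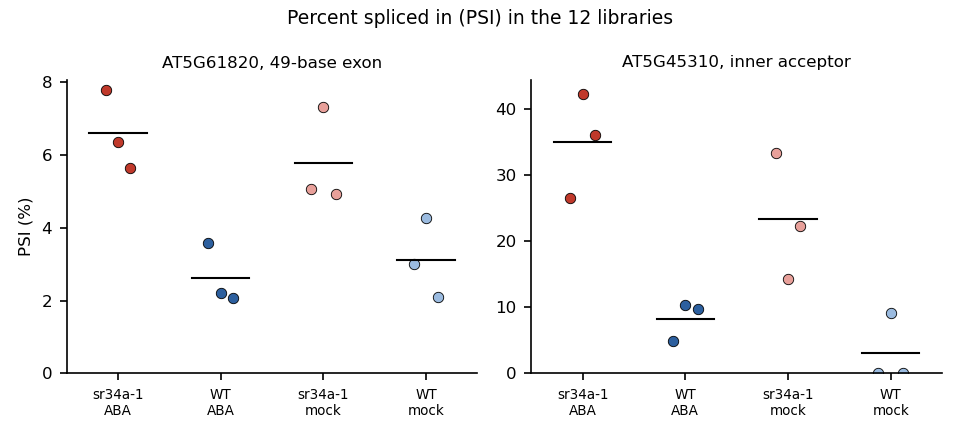
Percent spliced in (vertical axes, PSI in %, from 0) of the 49-base exon of AT5G61820 and of the inner acceptor of AT5G45310 in the 12 libraries (points) with group means (lines). With ABA the sr34a-1 libraries lie at 5.65 to 7.78 for the exon and 26.6 to 42.3 for the acceptor, above WT at 2.07 to 3.59 and 4.92 to 10.3, and the mock values of the acceptor rest on 1 to 14 reads.

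Intron retention is given as a description. With ABA, 161 introns in 66 members had enough reads, and their median retention was 2.44 PSI, against 0.39 PSI over all 89518 introns. Retention of at least 10 PSI was seen for 10.6% of the members' introns and for 4.98% of all. In AT5G45310, the first intron, upstream of the coding sequence, had a mean retention of 62.3 PSI in sr34a-1 with ABA, 68.0 in WT with ABA, 11.4 in sr34a-1 with mock treatment and 11.1 in WT with mock treatment, on 6 to 23 reads in mock libraries. A second RefSeq transcript of this gene begins inside that intron and continues through the rest of it.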

How the data were processed

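Read counts and cRPKM values per gene, and percent spliced in (PSI) per splicing event, were deposited by the authors for 12 libraries. Per the file headers, the gene values are counts and cRPKM, an RPKM-type unit whose correction is not given in the sources used here, and the PSI is a percent with its supporting reads. The deposited counts are whole numbers. The genome was TAIR 10, per the submitters' processing notes; the aligner, the counter and the use of strand are not given in the sources used here. Of 115059 annotated introns in the splicing table, 114865 (99.8%) began with GT or GC and closed with AG in RefSeq's TAIR10.1, which supplied sequences, products and gene structure. No column was without a sample (0 unmatched).

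Members were found on cRPKM. Members and lists were chosen with earlier results of these data known. Genotypes were compared on counts with edgeR 4.0.16 (filterByExpr, TMM factors, quasi-likelihood test, all 4 groups in one fit, Benjamini-Hochberg adjustment over 21256 genes) in R 4.3.3. Splicing was tested with limma 3.58.1 on log2 ratios of inclusion to exclusion reads with 0.5 added, for events with at least 10 reads in each ABA library and a mean PSI between 2 and 98. Sequence work used Python 3.11.15, pandas 2.3.3 and BLAST+ 2.17.0, and figures matplotlib 3.10.9. Alternatives were DESeq2 1.42.0 and its size factors, no filter, limma on log2(cRPKM + 1) and log2(cRPKM + 0.1), the 6 libraries compared only, a replicate block and each library left out.

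Replicate numbers in the labels are shared by the groups. Same-numbered sr34a-1 and WT libraries deviated together, with correlations of 0.1003 to 0.1485 with ABA and 0.1167 to 0.3155 with mock treatment, each above 0.1, so the numbers were taken to pair the libraries within a treatment. Between ABA and mock libraries the correlations were -0.0256 to 0.0991 in sr34a-1 and 0.026 to 0.1899 in WT. In WT, replicates 1 and 2 lay above 0.1 (0.1899 and 0.178) and replicate 3 lay under it. Since not every pair passed 0.1, the numbers were not taken to pair the treatments, which leaves some pairing in WT possible. The fit without the block was the design set at the outset, and the blocked fit, with 1 replicate term over all 12 libraries, is an alternative. The main p-values therefore do not use the pairing, and no fit with a replicate term within each treatment was run.

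Named members were those highest in level or ABA ratio, largest or smallest in genotype difference, lowest in interaction p, at the threshold, highest in level per annotation class, next to one another, or with a called splicing event. AT2G25890 and the members above 100 cRPKM beyond the 10 highest were named after their values were seen.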

Additional observations from a re-analysis of the deposited data

How the results depend on the processing

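The number of genes selected, 106, became 65 with 1 cRPKM added in the ratio and 43 with a threshold of 8, and 104 to 109 when each library was left out. Leaving out each library gave 61 to 76 members called between genotypes with ABA, 52 to 65 with mock treatment and 0 to 0 for the interaction. In the same fits, 14.1% to 22.7% of all genes were called with ABA and 8.82% to 19.3% with mock treatment. With the replicate number as a block, 76 members were called with ABA and 72 with mock treatment. The block called 30.3% and 25.3% of all genes, against 22.1% and 16.4% without it. Only 1 member, AT4G18920, was called for the interaction. Its edgeR adjusted p was 0.0367, against 0.101 without the block. For the interaction the block called 74 of all genes (0.348%). The block also ties mock to ABA libraries, which the numbers were not taken to pair. Splicing gave 4 called events with the block, 1 to 3 when each library was left out, and 130 of 507 events with no filter on mean PSI. Over all events, 282 of 28400 were called with the block, 172 to 193 when each library was left out, and 1980 of 261485 with no filter. The last setting adds events near full or no inclusion, where the log ratio with 0.5 read added depends on the number of reads. The part of this in the 130 calls was not tested. The median mock difference was 0.48 with limma on log2(cRPKM + 1), a scale that understates low genes. No result reversed. Over the alternatives, the genotype differences of called named members were recomputed with ABA and with mock treatment, where 14 and 24 of these values lost their call while 689 and 584 kept it. Low mock counts limit the highest ABA ratios, and few reads limit splicing in mock libraries.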
